A study of Mus musculus with 9 samples.

Results

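Promoter methylation was compared between embryonic mouse cardiomyocytes that received siRNA against DNMT3a and those that received siRNA against DNMT3b. The comparison took the 3 libraries of each knockdown by their labels, which are 6 of the 9 libraries in the series, and the 3 negative siRNA libraries entered no contrast. Cells came from ventricles of CD-1 embryos at embryonic day 13.5, with the ventricles of a litter pooled, so a library does not stand for 1 animal. After 48 h of culture they received 0.012 pmol of a mix of 4 siRNAs against DNMT3a, the same amount of a mix of 4 against DNMT3b, or the AllStars negative control siRNA. At 72 h after transfection, cardiomyocytes were enriched on magnetic columns through the surface protein VCAM1. The 15 amplified genes do not include Dnmt3a or Dnmt3b, and no RNA or protein was measured, so the degree of knockdown and the purity of the cells were not analysed here. The labels do not say whether the 3 libraries of a group came from separate cultures or litters, so the p-values measure only the spread between these libraries.

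DNMT3a and DNMT3b are the DNA methyltransferases that place new methyl groups on CpG dinucleotides, whereas DNMT1 copies existing methylation onto the new strand at replication. Promoters rich in CpG are usually unmethylated, and promoters poor in CpG, which many genes of differentiated heart muscle have, are often methylated to intermediate or high levels. The question addressed here is which promoters separate the 2 knockdowns and which do not. Bisulfite sequencing reads a methylated cytosine as C and an unmethylated one as T, and the level of a CpG is the percent of its reads with C. A region's level averages its tested CpGs, and differences between levels are given in percentage points.

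The letters of 3 promoters show how few CpGs carry these comparisons. They are RefSeq windows of GRCm38.p6, the assembly of the build mm10, each written 5′ to 3′ on the gene's strand, with the tested CpGs in capitals. Distances are counted from the start site of the RefSeq window, whose first base is 0. The Nppa window lies on the plus strand at chr4:148000472-148000771, and its 6 CpGs, all tested, lie at -142, -127, -79, -71, -1 and 29. The Myh7b window lies on the plus strand at chr2:155610993-155611292, and its 4 CpGs, all tested, lie at -191, -77, -8 and 8. The Myh7 window lies on the minus strand at chr14:54994577-54994876, with 4 of its 5 CpGs tested, the last of them at -116.
Nppa: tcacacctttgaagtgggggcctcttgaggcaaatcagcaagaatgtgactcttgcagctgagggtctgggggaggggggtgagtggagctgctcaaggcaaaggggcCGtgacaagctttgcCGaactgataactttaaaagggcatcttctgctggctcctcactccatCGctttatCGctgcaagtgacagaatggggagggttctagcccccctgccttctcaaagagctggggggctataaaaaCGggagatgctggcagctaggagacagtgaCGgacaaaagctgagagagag
Myh7b: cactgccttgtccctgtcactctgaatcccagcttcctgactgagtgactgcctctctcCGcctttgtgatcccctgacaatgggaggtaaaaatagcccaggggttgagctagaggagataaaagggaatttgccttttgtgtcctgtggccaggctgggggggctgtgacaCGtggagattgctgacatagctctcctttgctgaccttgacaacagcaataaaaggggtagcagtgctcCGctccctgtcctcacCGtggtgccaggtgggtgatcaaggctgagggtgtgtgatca
Myh7: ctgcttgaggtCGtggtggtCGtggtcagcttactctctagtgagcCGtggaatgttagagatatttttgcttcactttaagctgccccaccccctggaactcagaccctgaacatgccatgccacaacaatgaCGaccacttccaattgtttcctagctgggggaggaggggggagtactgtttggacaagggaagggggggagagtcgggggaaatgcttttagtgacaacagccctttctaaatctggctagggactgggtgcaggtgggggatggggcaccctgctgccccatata

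All 3 windows are at or below the median of 7 CpGs over 32851 RefSeq promoter windows of the same length, of which 94.6% hold a CpG. As few CpGs as in Nppa are found in 47.9% of windows, as few as in Myh7 in 43.6% and as few as in Myh7b in 38.0%. The files list offsets within a region and no chromosome, and exact matching of the listed cytosines placed 11 of the 26 regions with reads. Among them, Tnnc1_2 at chr14:31206937-31207341, was matched through the promoter window of the neighbouring gene Nisch, upstream of the start of Tnnc1 at 31208312. Nppb_2 and Mef2d_2 were not placed. The stretches that the deposited contexts spell out around their CpGs with the smallest p-values are short.
Nppb_2 offset 328: CGtcactg
Nppb_2 offset 341: cCGa
Nppb_2 offset 381: cccacaCGtctg
Mef2d_2 offset 195: ccaCGccag

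Depth was similar in both knockdowns, at 29309729 to 32543683 cytosine calls per library with DNMT3a siRNA and 27193672 to 31839328 with DNMT3b siRNA. Tested CpGs had a median coverage of 8024 reads over the 6 libraries. These are PCR reads without molecular identifiers, so depth bounds counting error only. At cytosines outside CpG, 0.209% ± 0.030 of reads carried C with DNMT3a siRNA and 0.190% ± 0.0019 with DNMT3b siRNA (SD, n = 3 each). In total 310 CpGs in 26 regions were tested. Cdkn1a_2, Cdkn1b_2, Cdkn1c_2 and Mef2c_2 held no reads.

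No promoter separated the knockdowns by the test, and the smallest regional p-values belonged to Nppb_2 and Myh7b_1. The quasi-likelihood test of edgeR called 0 of 310 CpGs (0%) and 0 of 26 regions (0%) at an adjusted p under 0.05. The smallest adjusted p-values were 0.306 for a CpG and 0.187 for a region. Without adjustment, 21 CpGs (6.77%) and 2 regions (7.69%) had p under 0.05, 14 of the CpGs higher and 7 lower with DNMT3a siRNA. The tools limma and a quasi-binomial model also called 0 CpGs, with 22 and 24 at an unadjusted p under 0.05, and 0 regions, with 2 each, whereas DESeq2 called 7 CpGs (2.26%).

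By the levels themselves, the 3 DNMT3a libraries lay apart from the 3 DNMT3b libraries in 4 of 26 regions (15.4%). Nppb_2, Nppa_1 and Nppa_2 were higher with DNMT3a siRNA and Mef2d_2 was lower. For 3 against 3 interchangeable libraries, such separation in either direction has a probability of 0.10 at any 1 region or CpG. Lying apart is therefore a description and not a call. Among CpGs, 42 (13.5%) lay apart, 22 of them (7.1%) higher and 20 (6.45%) lower with DNMT3a siRNA. Of these, 18 (5.81%) also differed by 5 points or more in mean, 15 higher and 3 lower, and 11 of the 15 were in natriuretic peptide regions. Those regions held 33 of the 310 tested CpGs. Of the 11, 6 were in Nppa_1 and 4 in Nppb_2, and CpGs of an amplicon are not independent. The 134 CpGs with a mean level of 2% or lower differed by at most 1.14 points, so none was among the 18. The 12 largest of the 18 are described with their regions, and the other 6, 4 higher and 2 lower, differed by 5.08 to 5.96 points. In 13 of 26 regions the means differed by under 1 point, and the median absolute difference over regions was 1.07 points. Among the 13, Camta1_1, Camta1_2, Camta2_1 and Cdkn1b_1 had group means of 0.238% to 0.392%, and Mef2d_1 had 1.24% and 1.63%. Such low levels leave little room for a difference.

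**Figure D1:**
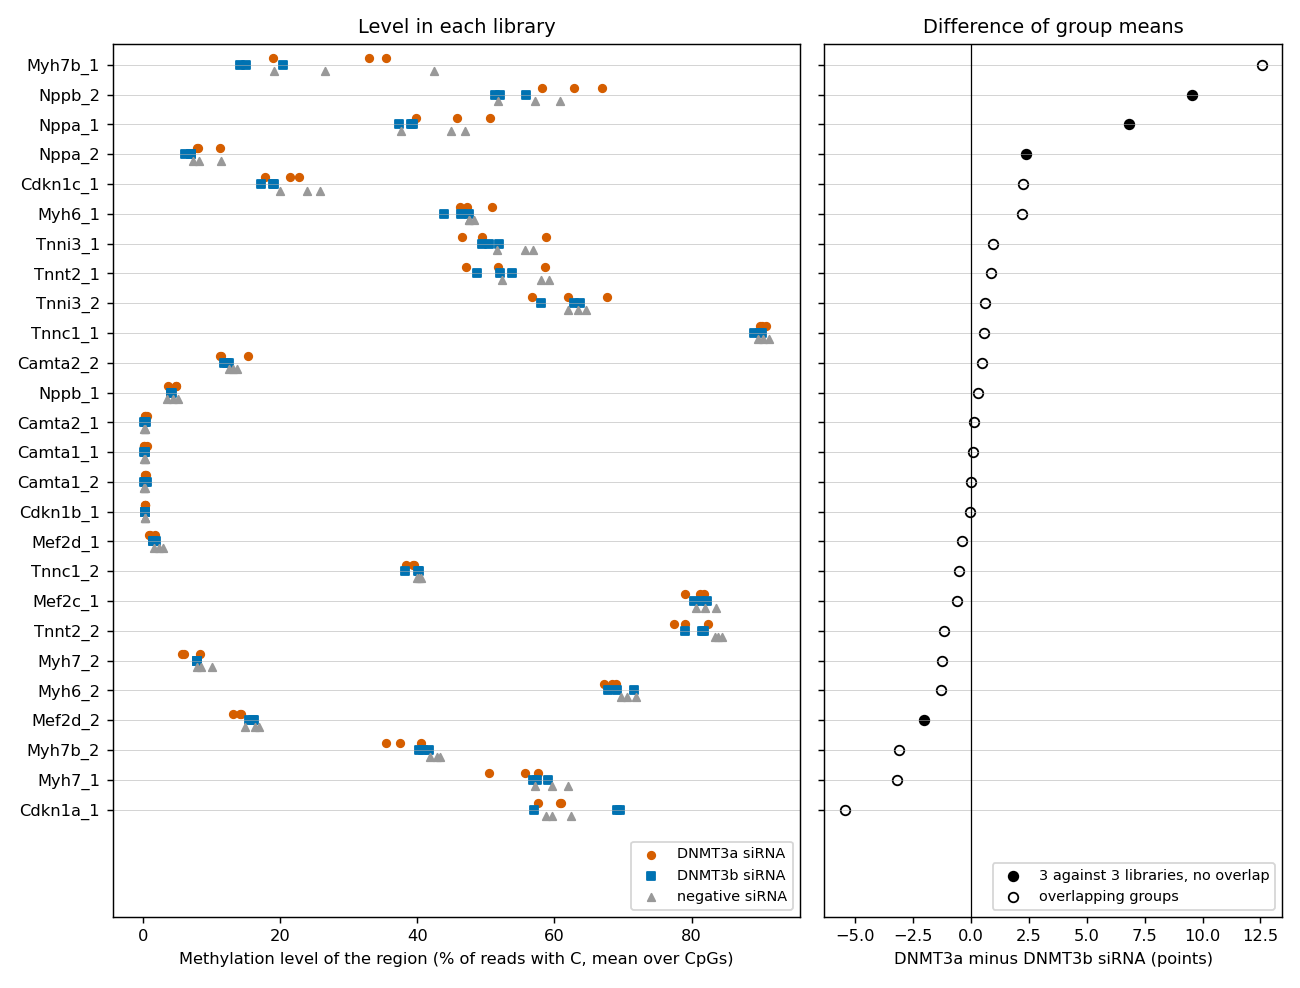
Methylation level of the 26 regions in each library (left, percent of reads with C, mean over CpGs) and the difference of the group means, DNMT3a minus DNMT3b siRNA (right, points), with regions sorted by that difference. Filled points are the 4 regions whose knockdown libraries do not overlap; negative siRNA libraries are drawn in grey, and differences run from -5.43 at Cdkn1a_1 to 12.6 at Myh7b_1.

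Nppa encodes atrial natriuretic peptide and Nppb brain natriuretic peptide, hormones of heart muscle that promote salt loss and widen vessels. All 4 of their regions were higher in mean with DNMT3a siRNA, against 15 of 26 regions overall. The median region difference was 4.60 points, against 0.10 over all regions. Of their 33 CpGs, 26 were higher and 7 lower in mean, with a median difference of 2.44 points against 0.07 over all CpGs. The latter include 134 CpGs with a mean level of 2% or lower, whose median difference was 0.02 points. Over all genes the median was 0.74 points for CpGs over 2 and up to 20%. It was 2.67 points over 20 and up to 60%, and -0.73 over 60 and up to 98%. The natriuretic peptide CpGs and regions were not compared with others of like level. The 2 genes lie near each other on chromosome 4, Nppb at 147985786 to 147987205 and Nppa at 148000722 to 148002074, and CpGs within a region share an amplicon.

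Nppb_2 had the smallest regional p. Its level was 62.8%, 66.9% and 58.2% in DNMT3a siRNA replicates 1 to 3 and 55.9%, 51.3% and 52.0% in DNMT3b siRNA replicates 1 to 3. Every DNMT3a library lay above every DNMT3b library. The means of 62.6% ± 4.33 and 53.1% ± 2.45 (SD, n = 3 each) differed by 9.54 points, a log2 ratio of the odds that a read carries C of 0.51 ± 0.15 (standard error). Its 95% interval was 0.15 to 0.87, and the edgeR adjusted p was 0.187. DESeq2 called this region alone (adjusted p = 0.0217, 3.85% of regions), and edgeR called it without DNMT3a siRNA replicate 3 (adjusted p = 0.0461). With any other library left out, edgeR did not call it. Without DNMT3b siRNA replicate 2 or 3, the smallest edgeR adjusted p of any region was 0.672 or 0.677. Negative siRNA libraries, at 60.7%, 51.7% and 57.2%, overlapped both groups. Outside CpG, 0.155%, 0.153% and 0.151% of reads in this region carried C with DNMT3a siRNA and 0.154%, 0.169% and 0.272% with DNMT3b siRNA.

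The 6 CpGs of Nppb_2 lay apart in opposite directions along the amplicon. The mean of the first 2, at offsets 51 and 238, was 81.6% ± 1.64 in DNMT3a libraries and 84.8% ± 0.51 in DNMT3b libraries, and each was lower in all 3 DNMT3a libraries. The last 4, at offsets 312 to 381, averaged 53.2% ± 5.75 and 37.2% ± 3.50, and each was higher in all 3 DNMT3a libraries. The split was made with these values in view. The region's mean therefore understates the difference at its downstream end.

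The widest gap in the region was at offset 341. It stood at 62.0%, 65.9% and 53.9% with DNMT3a siRNA and at 44.2%, 35.1% and 37.4% with DNMT3b siRNA, which differ by 21.7 points in mean. Its log2 odds ratio was 1.28 ± 0.25 (edgeR adjusted p = 0.306). This was the largest difference among the CpGs whose libraries did not overlap.

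At offset 328 the levels were 51.2%, 59.0% and 43.8% against 34.8%, 29.8% and 30.9%, a difference of 19.5 points (edgeR adjusted p = 0.306). At offset 381 they were 31.2%, 43.4% and 27.9% against 21.8%, 16.4% and 16.4%, a difference of 15.98 points (edgeR adjusted p = 0.340). At both CpGs, as at offset 341, DNMT3a siRNA replicate 2 was the highest and replicate 3 the nearest to the DNMT3b libraries. The difference was 6.50 points at offset 312 and -2.73 points at offset 51.

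Nppa_1 spans the start of Nppa, with listed cytosines from chr4:148000521-148000962. Its level was 45.8%, 50.6% and 39.8% with DNMT3a siRNA and 39.3%, 39.1% and 37.3% with DNMT3b siRNA. The groups did not overlap, but the lowest DNMT3a library was within 1 point of the highest DNMT3b library. The difference of 6.82 points had a log2 odds ratio of 0.42 ± 0.22 with a 95% interval of -0.11 to 0.95 (edgeR adjusted p = 0.532). Without DNMT3a siRNA replicate 3 the log2 odds ratio was 0.65 and edgeR called the region (adjusted p = 0.0461), and without DNMT3a siRNA replicate 2 the difference was 4.22 points. No other library left out led edgeR to call Nppa_1. Negative siRNA stood at 44.8%, 37.6% and 47.0%, and overlapped both groups. Reads with C outside CpG were 0.155% and 0.174% in the DNMT3a and DNMT3b groups.

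All 11 CpGs of Nppa_1 were higher in mean with DNMT3a siRNA, and 6 lay apart. At -71 the levels were 42.6%, 47.2% and 30.5% against 27.5%, 27.95% and 28.3%, a difference of 12.1 points. At -1, the base before the annotated start, they were 19.7%, 21.2% and 12.5% against 10.2%, 10.4% and 10.2%, a difference of 7.54 points (edgeR adjusted p = 0.508). The DNMT3b libraries at these CpGs lay within 1 point of each other, while the DNMT3a libraries were spread.

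The other CpGs apart were at -127, with a difference of 9.13 points, and downstream of the start at 92, 99 and 148, with differences of 10.4, 11.4 and 7.33 points. The difference was smallest at 201, where all 6 libraries were between 87.9% and 90.9%. In the printed window, the CpGs at -142, -79 and 29 were the 3 of 6 whose groups overlapped.

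**Figure D2:**
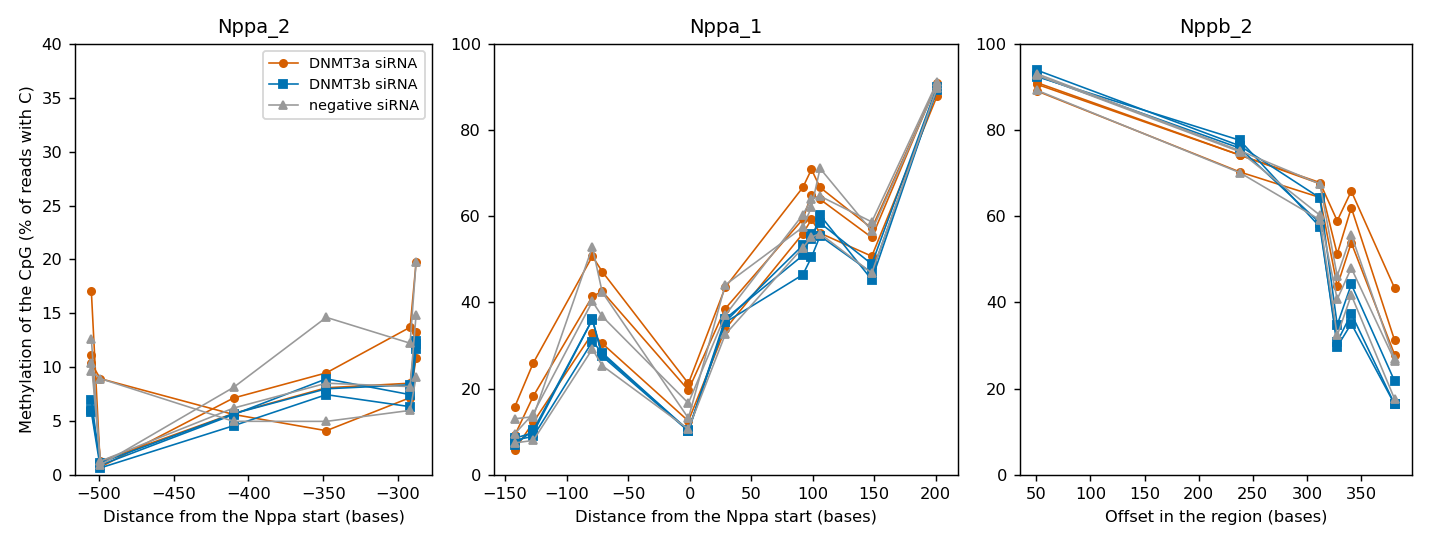
Methylation of each tested CpG (percent of reads with C) in Nppa_2 and Nppa_1 by distance from the Nppa start and in Nppb_2 by offset, 1 line per library. The y axis of Nppa_2 ends at 40%; in Nppb_2 the DNMT3a lines lie below the DNMT3b lines at the first 2 CpGs and above them at the last 4.

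Upstream of it, Nppa_2 was weakly methylated, at 7.99%, 11.3% and 7.84% with DNMT3a siRNA and 6.99%, 6.92% and 6.08% with DNMT3b siRNA. The groups lay apart and their means differed by 2.37 points, with a log2 odds ratio of 0.26 ± 0.21 (edgeR adjusted p = 0.552). The difference was 1.25 points without DNMT3a siRNA replicate 2 and 1.51 points with reads pooled over the region. The CpG at -505 stood at 11.2%, 17.03% and 10.4% against 6.97%, 6.04% and 5.84%, with a log2 odds ratio of 1.10 ± 0.25 (edgeR adjusted p = 0.306). It was the only CpG of the 6 that lay apart. Reads with C outside CpG were 0.308%, 0.212% and 0.157% in the DNMT3a libraries and 0.164%, 0.168% and 0.165% in the DNMT3b libraries, and their part in the CpG level was not tested.

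Nppb_1 did not separate the knockdowns, at 4.39% ± 0.71 and 4.07% ± 0.07, with a 95% interval of the log2 odds ratio of -0.23 to 0.41. None of its 10 CpGs lay apart.

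**Figure D3:**
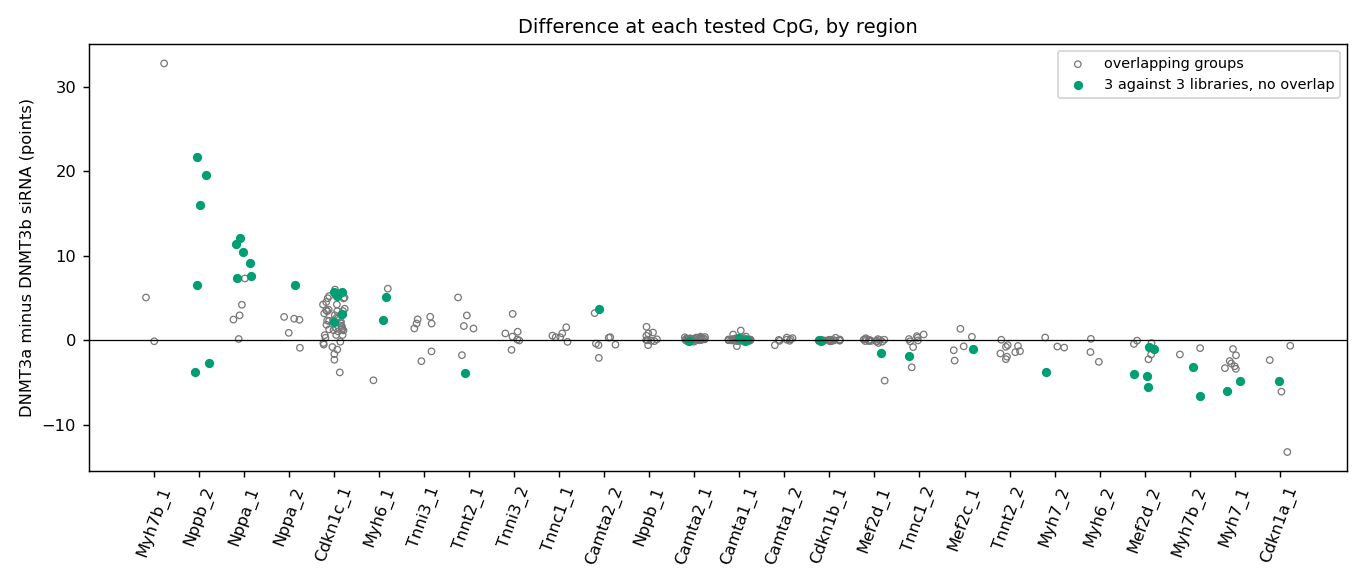
Difference of the group means at each of the 310 tested CpGs (DNMT3a minus DNMT3b siRNA, points), by region, with regions sorted by their own difference and points spread sideways for visibility. Filled points are the 42 CpGs whose 3 against 3 libraries do not overlap; the isolated open point at 32.7 is offset 145 of Myh7b_1.

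Mef2c and Mef2d encode MEF2 factors, which activate muscle genes, and Camta1 and Camta2 encode calmodulin-binding transcription activators. Of their 7 regions, 4 were higher and 3 lower in mean with DNMT3a siRNA, and of their 126 CpGs 72 were higher and 54 lower. Mef2d_2 was the region that lay apart in the lower direction. It stood at 14.2%, 13.1% and 14.3% with DNMT3a siRNA and at 15.5%, 16.01% and 16.1% with DNMT3b siRNA. The difference was -2.04 points, with a log2 odds ratio of -0.26 ± 0.13 and a 95% interval of -0.56 to 0.05 (edgeR adjusted p = 0.532). Negative siRNA, at 16.01% ± 1.07, lay above both means.

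In Mef2d_2, DNMT3a siRNA had the lower mean at all 10 CpGs, and 5 lay apart. At offset 195 the levels were 7.79%, 7.71% and 8.30% against 11.5%, 11.3% and 12.8%, with a log2 odds ratio of -0.64 ± 0.19 (edgeR adjusted p = 0.508). The difference there, -3.94 points, exceeded the spread within either group. At offset 50 the difference was -5.58 points.

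Mef2d_1 and Mef2d_2 list 24 cytosines in common at a single shift of their offsets, 4 of them CpGs, so the 2 amplicons appear to read some of the same CpGs. All 4 were lower in mean with DNMT3a siRNA in both amplicons. The pairs at offsets 74 and 352 and at 77 and 355 had group means of only 0.386% to 1.16%. Their differences were -0.055 to -0.441 points, so their direction rests on small values. The pair at offsets 63 and 341 stood at 2.40% ± 0.69 against 3.95% ± 0.30 in Mef2d_1 and at 2.52% ± 0.38 against 3.33% ± 0.17 in Mef2d_2, and lay apart in both. The amplicons come from the same DNA and are not replicates. Mef2d_1 as a whole was at 1.24% and 1.63%, with overlapping groups.

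**Figure D4:**
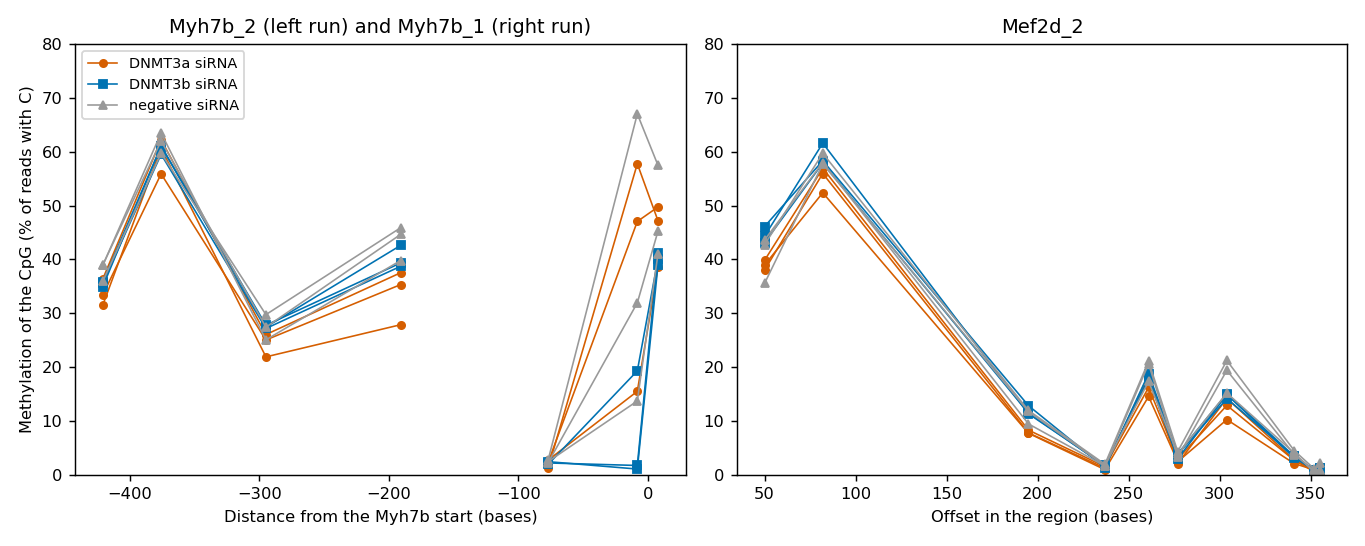
Methylation of each tested CpG (percent of reads with C) in the 2 Myh7b regions by distance from the gene start (left) and in Mef2d_2 by offset (right), 1 line per library. At the Myh7b CpG at -8 the libraries spread from 1.07% to 67.0%, while at offset 195 of Mef2d_2 the 3 DNMT3a libraries lie below the 3 DNMT3b libraries.

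The other transcription factor regions did not separate the knockdowns. Mef2c_1 stood at 80.7% ± 1.45 and 81.3% ± 0.90, with a 95% interval of the log2 odds ratio of -0.30 to 0.23. Camta2_2 stood at 12.6% ± 2.27 and 12.2% ± 0.38, with an interval of -0.34 to 0.44. Camta1_1, Camta1_2 and Camta2_1 were almost unmethylated, with means of 0.238% to 0.392% over both knockdowns.

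Their CpG levels were near the percent of reads with C outside CpG. In Camta2_1 the CpG level was 0.33%, 0.53% and 0.31% with DNMT3a siRNA and 0.42%, 0.21% and 0.19% with DNMT3b siRNA. Reads with C outside CpG in the same region were 0.252%, 0.435% and 0.240% and 0.356%, 0.167% and 0.155%, in the same order of libraries. In each knockdown the library with the highest CpG level there was also the one with the most C outside CpG. In the negative siRNA group, replicate 3 had the highest CpG level, 0.249%, and the lowest value outside CpG, 0.176%. The highest library was the same by both measures in each knockdown in Camta1_1, and in neither knockdown in Camta1_2. The part of reads with C outside CpG in the CpG levels was not tested.

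**Figure D5:**
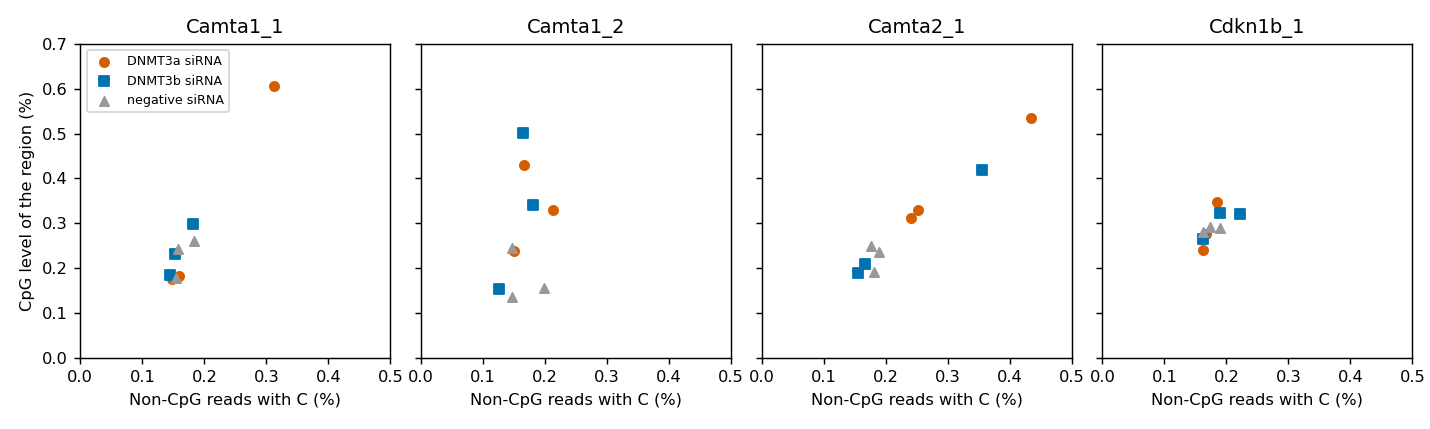
CpG level of 4 weakly methylated regions (y axis, percent) against the percent of reads with C at cytosines outside CpG in the same region (x axis), 1 point per library. In Camta2_1, DNMT3a siRNA replicate 2 has the highest value on both axes, at 0.435% outside CpG.

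Sarcomere genes encode the contractile apparatus, and their 12 regions were evenly divided, 6 higher and 6 lower in mean with DNMT3a siRNA. None lay apart, and the median region difference was 0.03 points. Of their 71 CpGs, 31 were higher and 40 lower, against 181 higher and 129 lower over all 310 CpGs. Of the 71, 2 lay apart above and 7 apart below, against 22 and 20 of all 310 CpGs. Among them Myh6 encodes alpha myosin heavy chain, the main adult form in mouse ventricle, Myh7 encodes the beta form that prevails in the fetal ventricle, and Myh7b encodes a related myosin.

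Myh7b_1 had the largest difference of any region without separating the knockdowns. It stood at 35.4%, 33.0% and 18.9% with DNMT3a siRNA and at 20.4%, 15.03% and 14.2% with DNMT3b siRNA, and DNMT3a siRNA replicate 3 lay among the DNMT3b libraries. The difference was 12.6 points, with a log2 odds ratio of 1.79 ± 0.53 (edgeR adjusted p = 0.187). Without DNMT3a siRNA replicate 3 the log2 odds ratio was 2.32 (edgeR adjusted p = 0.0215), and no other library left out led edgeR to call the region. The difference was 19.2 points with reads pooled over the region. It was 28.6 points with each library's level taken as the median of its CpGs. The median of the CpG differences themselves was 5.05 points. Negative siRNA libraries were spread too, at 42.4%, 19.1% and 26.5%.

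Of the 3 CpGs of Myh7b_1, the one at -8 varied most. It was read as C in 57.7%, 47.0% and 15.5% of reads with DNMT3a siRNA and in 19.3%, 1.73% and 1.07% with DNMT3b siRNA (edgeR adjusted p = 0.633). The CpG at -77 stayed between 1.19% and 2.71% in these 6 libraries. The mean coverage of the region also differed between the groups, at 12670, 10113 and 6066 reads in the DNMT3a libraries and 3089, 2863 and 4303 in the DNMT3b libraries. In the DNMT3a libraries coverage and the region's level fell in the same order, whereas the DNMT3b library with most reads had the lowest level. Negative siRNA libraries had 13020, 5428 and 4243 reads, at levels of 42.4%, 19.1% and 26.5%. The part of coverage in the result was not tested.

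Upstream, Myh7b_2 was lower in mean with DNMT3a siRNA at all 4 of its CpGs. The region stood at 35.5%, 40.5% and 37.4% against 40.8%, 41.7% and 40.3%, with overlapping groups and a difference of -3.10 points (edgeR adjusted p = 0.552), which was -1.94 without DNMT3a siRNA replicate 1. The CpG at -191 lay apart, at 27.9%, 37.5% and 35.3% against 39.3%, 42.6% and 38.7%. DNMT3a siRNA replicate 1 was lowest there, and its mean coverage in this region was 722 reads against 6532 to 8134 in the other 5 libraries. The 2 regions of this promoter thus differed in opposite directions in mean.

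The beta myosin promoter leaned lower with DNMT3a siRNA in both regions. Myh7_1 stood at 50.5%, 57.7% and 55.7% against 59.0%, 56.9% and 57.4%, with all 9 CpGs lower in mean, 2 of them apart, and overlapping groups. Its 95% interval of the log2 odds ratio was -0.49 to 0.12. The difference of -3.17 points was -1.11 without DNMT3a siRNA replicate 1. Myh7_2 stood at 5.93%, 8.34% and 5.61% against 7.86%, 7.93% and 7.89%, again with overlapping groups. Its difference was -1.26 points, and -0.74 with reads pooled. The log2 odds ratio was -0.20 with a 95% interval of -0.67 to 0.27 (edgeR adjusted p = 0.552). Only without DNMT3a siRNA replicate 2, the highest of its group, did edgeR call Myh7_2 lower with DNMT3a siRNA (log2 odds ratio -0.42, adjusted p = 0.0249).

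Within Myh7_2, the CpG at -116, the last capital pair in the printed window, lay apart. Its levels were 8.07%, 8.55% and 7.56% with DNMT3a siRNA and 11.1%, 11.8% and 12.5% with DNMT3b siRNA, for a mean difference of -3.75 points. The log2 odds ratio was -0.61 ± 0.18 (edgeR adjusted p = 0.508). Negative siRNA, at 12.5%, 11.95% and 14.03%, lay with the DNMT3b libraries or above them.

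At the alpha myosin promoter, Myh6_1 was higher and Myh6_2 lower in mean with DNMT3a siRNA. Myh6_1 lies at chr14:54966480-54966895, across the start site of its RefSeq window, while the annotated gene extends further upstream, to 54968017. It stood at 46.2%, 50.9% and 47.3% against 47.6%, 43.9% and 46.3%, with overlapping groups and a log2 odds ratio of 0.22 ± 0.10 (edgeR adjusted p = 0.479). Its difference of 2.20 points was 3.64 with reads pooled and 5.52 with each library's level taken as the median of its CpGs. The median of the CpG differences themselves was 3.72 points. The region's difference was 0.79 without DNMT3a siRNA replicate 2 and 1.19 without DNMT3b siRNA replicate 2. The CpGs at -251 and -162 lay apart above, by 5.08 and 2.36 points, the second of them named after its values were seen, and the CpG at 68 had a difference of -4.74 points. Myh6_2 stood at 68.2% ± 0.90 and 69.5% ± 1.90.

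The troponin genes Tnnc1, Tnni3 and Tnnt2 encode the calcium-binding, inhibitory and tropomyosin-binding subunits of the thin filament switch, and their 6 regions did not separate the knockdowns. Tnnc1_1 was almost fully methylated at 90.3% ± 0.47 and 89.8% ± 0.61, with a 95% interval of the log2 odds ratio of -0.12 to 0.37. Tnnc1_2 stood at 39.0% ± 0.65 and 39.5% ± 1.19, with an interval of -0.22 to 0.26. These were the tightest intervals among the troponin regions.

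Tnni3_1 stood at 51.6% ± 6.39 and 50.6% ± 1.23, and Tnni3_2 at 62.1% ± 5.46 and 61.5% ± 3.05. Their 95% intervals of the log2 odds ratio were -0.44 to 0.60 and -0.32 to 0.39. Tnnt2_1 stood at 52.5% ± 5.79 and 51.6% ± 2.58, with a 95% interval of the log2 odds ratio of -0.56 to 0.63. The near-equal means in these regions came with a wide spread of the DNMT3a libraries, so differences within those intervals are not excluded. Tnnt2_2 stood at 79.6% ± 2.50 and 80.8% ± 1.53.

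Cdkn1a, Cdkn1b and Cdkn1c encode the cyclin-dependent kinase inhibitors p21, p27 and p57, which hold back the cell cycle. Cdkn1a_1, upstream of the start at chr17:29090475-29090898, had the most negative difference of any region, -5.43 points. It stood at 60.9%, 60.8% and 57.7% with DNMT3a siRNA and at 57.0%, 69.5% and 69.1% with DNMT3b siRNA. DNMT3b siRNA replicate 1 lay below all 3 DNMT3a libraries, so the groups overlapped (edgeR adjusted p = 0.552). Without that library the difference was -9.53 points, and without DNMT3b siRNA replicate 2 or 3 it was -3.28 or -3.48.

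Cdkn1c_1 held 52 CpGs, the most of any region, and 44 of them were higher in mean with DNMT3a siRNA, against 181 of all 310. Of the 52, 5 lay apart above, against 22 of all 310. Its level was 17.8%, 22.8% and 21.5% against 19.1%, 19.0% and 17.2%, a difference of 2.27 points with a 95% interval of the log2 odds ratio of -0.13 to 0.63. Without DNMT3a siRNA replicate 1 the difference was 3.70 points, and without replicate 2 it was 1.23. The groups overlapped, and the negative siRNA mean of 23.2% ± 2.96 lay above both. Cdkn1b_1 was almost unmethylated, at 0.288% and 0.303%.

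CpGs were also counted by their mean level over the 6 libraries. Among 134 CpGs at 2% or lower, 77 were higher and 57 lower with DNMT3a siRNA, with a median difference of 0.02 points. Among 60 over 2 and up to 20%, 39 were higher and 21 lower, with a median of 0.74 points. Among 69 CpGs with a mean level over 20 and up to 60%, 47 were higher and 22 lower with DNMT3a siRNA, with a median difference of 2.67 points. Among 47 CpGs over 60 and up to 98%, 18 were higher and 29 lower, with a median of -0.73 points. These counts are descriptions, since CpGs of an amplicon are not independent.

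The knockdowns also differed in how far their libraries spread. The SD was larger with DNMT3a siRNA in 20 of 26 regions, with a median of 1.90 points against 0.98. DNMT3a siRNA replicate 2 was the highest of its group in 20 of 26 regions, as was negative siRNA replicate 3 in its own group. Averaged over regions it stood at 38.0%, against 34.8% and 34.7% in replicates 1 and 3 and 34.8% to 35.3% in the DNMT3b libraries. The group means of this average, 35.8% ± 1.85 and 35.0% ± 0.27, differed by 0.80 points, which became -0.26 without DNMT3a siRNA replicate 2. The negative siRNA mean lay above both knockdown means in 16 regions, between them in 6 and below both in 4.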

How the data were processed

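Targeted bisulfite amplicons of 2 promoter regions of each of 15 genes were sequenced. The submitters' processing notes name FastQC, Bismark, Bowtie2 and build mm10, with versions and settings not given in the sources used here. Per the file headers, a deposited file holds a read count (coverage) for every cytosine, together with the percent reading C and the percent reading T. Coverage times percent gave whole reads within 0.01 for 23884 of 23884 values, and these were used as methylated counts.

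CpGs with coverage of 30 or more in all 9 libraries were kept, 310 of the 320 in regions with reads. CpGs and regions (summed counts) were tested two-sided with the edgeR 4.0.16 quasi-likelihood test (R 4.3.3) on reads with C and with T in the 6 knockdown libraries, with a coefficient for each library and Benjamini-Hochberg adjustment over all CpGs or regions. The alternatives were limma 3.58.1 with a prior count of 2, DESeq2 1.42.0, a quasi-binomial model, coverage minimums of 10 and 100, a fit of all 9 libraries, CpGs between 2% and 98%, a 5-point minimum, the replicate number as a block and leaving out each library. The methods were also run on simulated data. The outcome is not given here, so no statement on power at the reported differences rests on it. An exact permutation test of 3 against 3 libraries cannot give a p below 0.10 and was not used.

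All regions are named. CpGs are named where the libraries do not overlap and the means differ by 5 points or more (the 12 largest), or among the 10 smallest p-values, and others were chosen after their values were seen. The members, gene groups and tests were chosen with earlier results of these data known. Regions were placed by exact matching of at least 9 listed cytosines to RefSeq promoter windows of GRCm38.p6, with 0 mismatches. In these files, replicates of a group differed beyond 3 counting errors at 22.6% or more of CpGs, so none was a copy of another. Without molecular identifiers, this cannot show whether the libraries of a group came from separate cultures.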

Additional observations from a re-analysis of the deposited data

Results flagged for a closer look

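In Camta2_1, cytosines outside CpG were read as C more often in every DNMT3a siRNA library than in the negative siRNA libraries. The mean was 0.309% (range 0.240% to 0.435%) with DNMT3a siRNA and 0.182% (range 0.176% to 0.188%) with negative siRNA. DNMT3b siRNA replicate 1, at 0.356%, also lay above the negative siRNA libraries, and above DNMT3a siRNA replicates 1 and 3. In no other region with reads did every DNMT3a siRNA library exceed every negative siRNA library at cytosines outside CpG. These cytosines enter none of the CpG comparisons, and the cause was not tested.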

How the results depend on the processing

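The edgeR count of 0 CpGs was unchanged with coverage minimums of 10 and 100, limma, the quasi-binomial model, the fit of all 9 libraries, the replicate block and each library left out. DESeq2 called 7 CpGs, 5 higher (Nppb_2 offsets 328, 341 and 381, Nppa_2 offset 26, Myh7b_1 offset 145) and 2 lower (Mef2d_2 offset 195, Myh7_2 offset 225). Testing only the 176 CpGs between 2% and 98% called 1, Nppb_2 offset 341 (edgeR adjusted p = 0.0498), where fewer CpGs were adjusted for. For regions, DESeq2 called 1, Nppb_2, and the replicate block called 1, Myh7b_1 (edgeR adjusted p = 0.0052). Over 310 CpGs, the deviations of same-numbered libraries from their group means, in log2 odds, correlated at 0.12, -0.10 and 0.10. With 3 libraries per group these values cannot decide whether the numbers mark pairs, and the main test did not pair them. Leaving out each library gave 0 to 3 regions: 1 without DNMT3a siRNA replicate 2 (Myh7_2, lower) and 3 without DNMT3a siRNA replicate 3 (Myh7b_1, Nppa_1 and Nppb_2, higher). The cause was not tested. The smallest regional edgeR adjusted p was 0.338 without DNMT3a siRNA replicate 1. It was 0.136, 0.672 and 0.677 without DNMT3b siRNA replicates 1, 2 and 3. CpGs at an unadjusted p under 0.05 numbered 10 without DNMT3b siRNA replicate 2 and 33 without DNMT3a siRNA replicate 1, against 21. The difference at Nppb_2 ranged from 7.42 to 11.7 points and at Nppa_1 from 4.22 to 9.62 with a library left out. The sign of the difference held under all 10 alternatives in 16 of 26 regions. The mean over regions ranged from -0.26 to 1.37 with a library left out and was 0.33 without Myh7b_1.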

Other observations

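At 3 CpGs, chosen after their values were seen, single libraries stood far from the others of their own group. At offset 32 of Nppa_2, DNMT3a siRNA replicate 3 was at 8.92% and negative siRNA replicate 2 at 8.93%, while the other 7 libraries lay between 0.64% and 1.26%. At offset 374 of Cdkn1a_1, DNMT3b siRNA replicates 2 and 3 were at 66.2% and 64.4%, while the other 7 libraries lay between 32.1% and 46.6%. At offset 145 of Myh7b_1, the 9 libraries ran from 1.07% to 67.0%.

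Cdkn1b_2 and Cdkn1c_2 list an identical set of 104 cytosines, and neither held reads.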
